A study of Mus musculus with 12 samples.

Results

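The 10 genes described here had lower messenger RNA levels with either of a pair of short hairpin RNAs against Cldn7 in mouse mammary tumour organoids: Scrg1, Chl1, Slc6a15, Slc35d3, Chst11, Txndc16, Scin, Cdc14a, Rasef and Mef2c. They were chosen from the measured values, because each fell with either hairpin, and are 10 of the 25861 genes in the count table and of the 17025 with enough counts to be tested. Their differences from the control are therefore a description and carry no test. The organoids came fresh from primary tumours of the MMTV-Neu mouse, a transgenic strain that expresses Neu (Erbb2) in mammary epithelium under the viral MMTV promoter. The labels call the material primary epithelial cells of the mammary gland. All 12 libraries were from organoids infected with lentivirus at a multiplicity of infection of 20, put under 3 days of selection in 3 µg/ml puromycin, and kept in collagen I to day 5 with FGF2 at 2.5 nM. The control group, shControl, carried a non-targeting hairpin and is labelled WT. The other groups, sh1Cldn7 and sh2Cldn7, carried hairpin 1 or hairpin 2 against Cldn7, which encodes the tight junction protein claudin 7. Each group held 4 libraries, numbered 1 to 4 in the titles. The labels do not say that these came from separate animals or cultures. Each p-value therefore sets a difference against scatter among these libraries, and that scatter may be technical only. It is the scatter left after the fit removes differences between the numbers, except where the text says the number was left out.

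These genes, called the members here, are not known as 1 pathway. Scrg1 encodes a small secreted protein, Chl1 a cell adhesion molecule of the L1 family, Slc6a15 a sodium-coupled carrier of neutral amino acids, and Slc35d3 a member of the nucleotide sugar transporter family needed for platelet dense granules. Chst11 encodes a Golgi enzyme that sulfates chondroitin at the 4-O position, and Txndc16 a thioredoxin-domain protein of the endoplasmic reticulum. Scin (scinderin) severs and caps actin filaments in a calcium-dependent way, Cdc14a is a dual-specificity phosphatase, Rasef is a Rab GTPase with an EF-hand domain, and Mef2c is a MADS-box transcription factor. In organoid RNA, fewer cells of a type and less RNA per cell cannot be told apart, and that holds for every level given here.

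All 10 are annotated as protein-coding genes; coordinates here are on GRCm38 (mm10), from GENCODE M21. The genes lie on 8 chromosomes, and 3 of them, Slc35d3, Chst11 and Slc6a15, are on chromosome 10, where the gaps between them are 63.13 and 20.17 Mb. Gene starts were matched for 8 of the 10 members, with 12 start sites, in the RefSeq promoter table for GRCm38.p6; Scrg1 and Slc6a15 had no entry. A few of the stretches before a start are printed as examples, and they do not stand for all the members' starts. Each runs 5′ to 3′ on the gene's strand and ends at the base before the start; none overlaps an annotated exon, and capitals mark GGAATG, the motif bound by TEAD factors.
Slc35d3, chr10:19851460-19851709, minus strand: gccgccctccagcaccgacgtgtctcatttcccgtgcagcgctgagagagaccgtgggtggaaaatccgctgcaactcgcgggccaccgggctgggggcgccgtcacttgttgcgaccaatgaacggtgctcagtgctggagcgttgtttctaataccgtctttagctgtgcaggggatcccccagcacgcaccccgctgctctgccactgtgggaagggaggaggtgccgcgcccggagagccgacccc
Chst11, chr10:82985247-82985496, plus strand: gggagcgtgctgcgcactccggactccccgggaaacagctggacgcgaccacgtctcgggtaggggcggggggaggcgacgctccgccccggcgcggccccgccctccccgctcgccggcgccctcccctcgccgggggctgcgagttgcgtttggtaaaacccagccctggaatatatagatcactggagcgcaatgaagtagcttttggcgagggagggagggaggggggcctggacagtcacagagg
Scin, chr12:40134229-40134478, minus strand: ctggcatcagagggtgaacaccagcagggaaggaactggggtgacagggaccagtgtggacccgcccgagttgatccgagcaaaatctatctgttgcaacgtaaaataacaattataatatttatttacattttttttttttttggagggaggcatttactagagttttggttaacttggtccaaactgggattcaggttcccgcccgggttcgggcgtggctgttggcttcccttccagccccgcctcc
Mef2c (its most upstream listed start), chr13:83503784-83504033, plus strand: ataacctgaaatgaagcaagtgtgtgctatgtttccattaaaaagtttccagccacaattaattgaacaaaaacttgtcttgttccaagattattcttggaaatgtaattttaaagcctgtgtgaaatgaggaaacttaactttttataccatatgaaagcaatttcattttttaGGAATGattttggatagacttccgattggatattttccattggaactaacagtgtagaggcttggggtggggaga
The G and C bases made up 65.6% of the Slc35d3 stretch, 70.0% of that of Chst11, 49.2% of that of Scin and 33.6% of that of Mef2c. The other listed starts of Mef2c had 44.8% and 49.6%. Base composition over all windows was not measured, so whether these stretches are unusually unlike was not tested. Motifs were searched on both strands of the 250 bases before and 50 bases after each start. GGAATG occurred in 3 of the 12 member windows (1 each of Cdc14a, Mef2c and Rasef) and in 14.7% of all 32851 windows. The AP-1 motif TGANTCA occurred in 1 (Mef2c) against 7.81% of all windows, and the E-box CAGGTG in 2 (Rasef and Txndc16) against 20.2%. The SMAD box CAGAC, a short motif, occurred in 6 (3 each of Cdc14a and Mef2c) against 49.6%. Neither the CArG box of serum response factor nor the MEF2 motif, each searched as a degenerate motif, occurred in a member window, against 1.63% and 3.19% of all windows. These are matches of letters and not shown to be bound.

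Cldn7 itself checks the labels. Its level was 101 to 186 CPM (counts-per-million: the gene's reads relative to the library's total, with totals scaled by edgeR's trimmed mean of M-values) in the control libraries and 25.4 to 44.2 in the hairpin libraries. The log2 difference was -2.07 (SE 0.08) with hairpin 1 and -2.30 (SE 0.08) with hairpin 2 (edgeR adjusted p = 2.63e-06 and 9.79e-07). The epithelial marker Epcam was at 802 to 1857 CPM and Erbb2 at 2582 to 6548 CPM over the 12 libraries. Total counts were 34988358 to 44645514 in numbers 1 and 2 and 68581024 to 76329473 in numbers 3 and 4, and each member had 262 to 13022 reads in each library. Deviations from the group mean correlated at 0.855 to 0.916 between libraries of the same number, so every hairpin library was set against the control of its own number, giving 8 pairs that share the 4 controls.

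Every member was lower in all 8 pairs, which makes 80 of 80 pairs. Over all tested genes 733 (4.31%) were lower in all 8 and 3.72% were higher in all 8. In edgeR's fit with the replicate number as a block, 10 of 10 members were past the adjusted threshold of 0.05 for hairpin 1, where 0.347% of genes were called lower and 0.382% higher, and 10 of 10 for hairpin 2, where 2.93% were called lower and 2.83% higher. The choice of members fixed these counts, and nothing is read from them. The genes called lower with each hairpin numbered 19 (0.112% of genes), the 10 members among them, and 0.194% of genes were called higher with each. That count of 19 was 1 without the replicate number, 108 with DESeq2 and between 1 (without hairpin 1 library 1) and 42 (without hairpin 2 library 3) when 1 library was left out. The median log2 difference of the members was -0.61 with hairpin 1 and -0.53 with hairpin 2, against -0.0019 and 0.0044 over all genes. Without the replicate number in the model, none of the 10 passed for either hairpin.

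**Figure D1:**
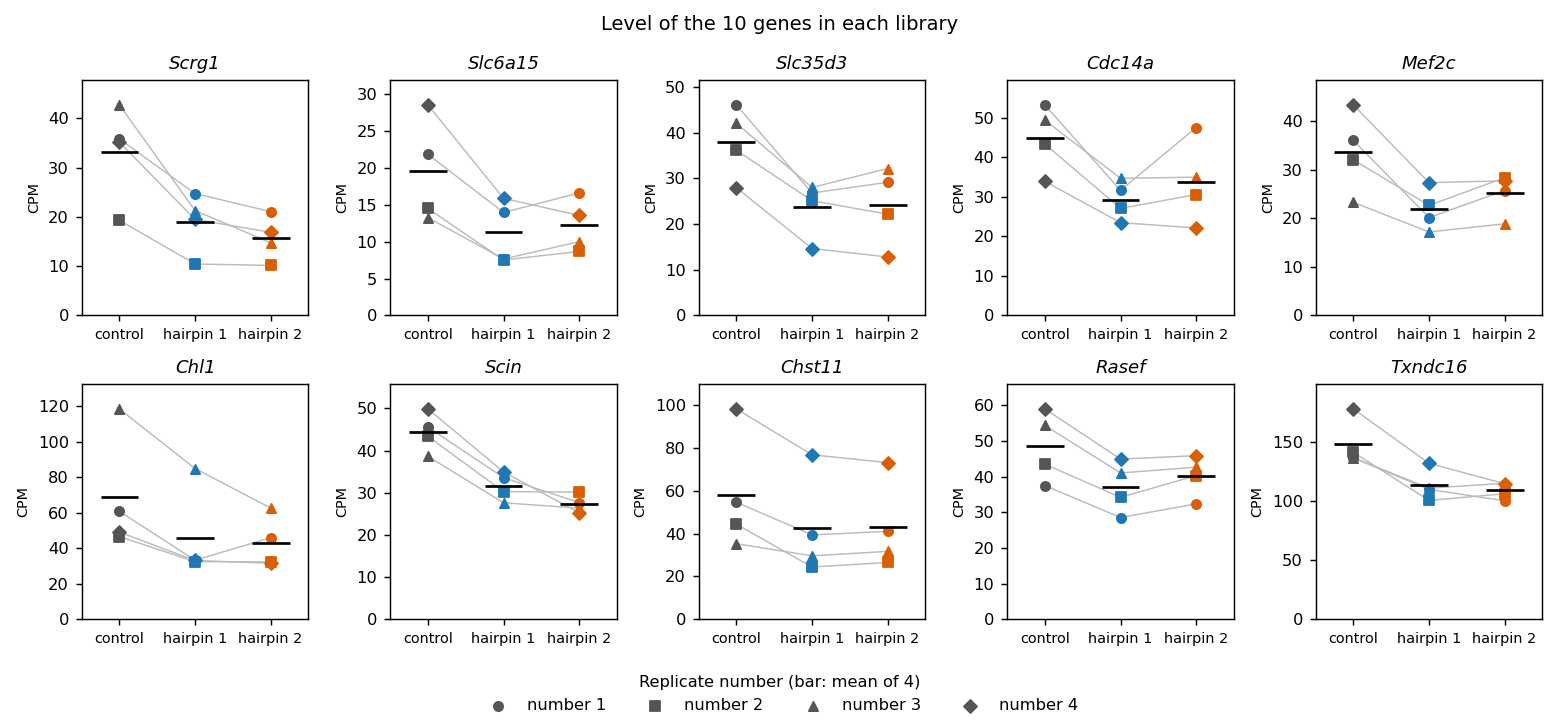
Level of each of the 10 genes in CPM (vertical axis from 0) in the 12 libraries, by group; symbols are replicate numbers, grey lines join the libraries of 1 number, and bars are means of 4. Each hairpin point lies below the control point of its own number, while in Scin and Txndc16 alone all 8 hairpin points lie below all 4 control points.

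Among the secreted and surface proteins, Scrg1 showed the lowest share of its control level left. Scrg1 (NCBI Gene 20284, chr8:57455923-57477585, plus strand) stood at 35.8, 19.3, 42.7 and 35.1 CPM in controls 1 to 4, at 24.7, 10.4, 21.3 and 19.5 CPM with hairpin 1 and at 21.05, 10.1, 14.7 and 16.9 CPM with hairpin 2. Control 2 was low, below 4 of the 8 hairpin libraries, so the groups overlapped and only the pairing by number sets each hairpin library under its control. The mean was 33.2 ± 9.91 CPM in the controls, 19.0 ± 6.10 with hairpin 1 and 15.7 ± 4.55 with hairpin 2 (SD, n = 4 each). In the fit with the replicate number, 56.5% and 47.4% of the control level remained. Such shares are the fitted log2 differences written as percentages, here and below, and are not ratios of the group means. For Scrg1 the log2 difference was -0.82 (SE 0.11) with hairpin 1 and -1.08 (SE 0.11) with hairpin 2. Its pairs ranged from -0.53 to -1.004 for hairpin 1 and from -0.76 to -1.53 for hairpin 2, with the deepest fall in number 3. Per kilobase of annotated exon Scrg1 was also the most abundant member, at 47.5 ± 14.2 CPM per kb in the controls (SD, n = 4).

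Chl1 (NCBI Gene 12661, chr6:103510586-103750211, plus strand) stood at 60.8, 46.6, 118 and 49.1 CPM in controls 1 to 4, at 33.3, 32.4, 84.9 and 33.1 CPM with hairpin 1 and at 45.9, 32.4, 62.7 and 31.6 CPM with hairpin 2. Number 3 was the highest in each group, and its hairpin libraries were the only hairpin libraries above a control. On the log2 scale it was lower than the control, at -0.60 (SE 0.11) with hairpin 1 and -0.62 (SE 0.11) with hairpin 2. In the fit Chl1 thus kept 66.0% and 65.2% of its control level. The control mean was 68.7 ± 33.7 CPM (SD, n = 4).

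In the fit the carriers kept between 57.1% and 63.7% of their control levels. Slc6a15 (NCBI Gene 103098, chr10:103367783-103419377, plus strand) stood at 21.8, 14.5, 13.3 and 28.6 CPM in controls 1 to 4, at 13.97, 7.51, 7.65 and 15.9 CPM with hairpin 1 and at 16.6, 8.68, 10 and 13.6 CPM with hairpin 2. Numbers 1 and 4 were high in every group, and the 4 hairpin libraries with these numbers lay above control 3. Relative to the control its log2 difference was -0.81 (SE 0.12) with hairpin 1 and -0.65 (SE 0.12) with hairpin 2. Slc6a15 had the lowest mean CPM of the members in the controls, 19.5 ± 7.10 (SD, n = 4).

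Slc35d3 (NCBI Gene 76157, chr10:19847916-19851459, minus strand) stood at 46.1, 36.1, 42.0 and 27.9 CPM in controls 1 to 4, at 26.8, 25.1, 28.0 and 14.6 CPM with hairpin 1 and at 29.1, 22.2, 32.1 and 12.8 CPM with hairpin 2. Number 4 was the lowest in each group, and 3 hairpin libraries lay above control 4. The log2 differences were -0.71 (SE 0.10) and -0.72 (SE 0.10). The share of the control level that remained in the fit was 61.1% with hairpin 1 and 60.8% with hairpin 2. The group means were 38.0 ± 7.88 CPM in the controls, 23.6 ± 6.11 with hairpin 1 and 24.1 ± 8.60 with hairpin 2 (SD, n = 4 each).

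Of the members of the secretory pathway, Chst11 varied most between replicate numbers and Txndc16 little. Chst11 (NCBI Gene 58250, chr10:82985498-83195900, plus strand) stood at 54.6, 44.4, 35.3 and 98.2 CPM in controls 1 to 4, at 39.4, 24.4, 29.6 and 76.8 CPM with hairpin 1 and at 41.1, 26.6, 31.7 and 73.2 CPM with hairpin 2. Number 4 was the highest in each group, and both its hairpin libraries were above controls 1 to 3. The log2 difference was -0.48 (SE 0.09) with hairpin 1 and -0.44 (SE 0.09) with hairpin 2. Txndc16 (NCBI Gene 70561, chr14:45133465-45220328, minus strand) stood at 137, 142, 137 and 178 CPM in controls 1 to 4, at 110.2, 101, 111 and 132 CPM with hairpin 1 and at 100.5, 106, 115 and 115 CPM with hairpin 2. Here the groups did not overlap: all 8 hairpin libraries were below all 4 controls. Its log2 difference was -0.38 (SE 0.06) with hairpin 1 and -0.43 (SE 0.06) with hairpin 2.

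Scin was the other member whose groups did not overlap. Scin (NCBI Gene 20259, chr12:40059769-40134228, minus strand) stood at 45.5, 43.4, 38.6 and 49.9 CPM in controls 1 to 4, at 33.6, 30.3, 27.6 and 34.9 CPM with hairpin 1 and at 27.7, 30.2, 26.4 and 25.2 CPM with hairpin 2. The lowest control was above the highest hairpin library, which held for 31 of all tested genes (0.182%). Hairpin 2 had the lower estimate: the log2 difference was -0.49 (SE 0.08) with hairpin 1 and -0.69 (SE 0.08) with hairpin 2. The share of the control level that remained in the fit was 71.3% and 61.9%.

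Cdc14a (NCBI Gene 229776, chr3:116272553-116424032, minus strand) stood at 53.2, 43.3, 49.3 and 33.8 CPM in controls 1 to 4, at 31.6, 27.0, 34.6 and 23.4 CPM with hairpin 1 and at 47.5, 30.5, 34.9 and 22.1 CPM with hairpin 2. Hairpin 2 library 1 was above 2 of the controls and stood at -0.16 from its own control on the log2 scale, the smallest of the 4 falls with that hairpin. For Cdc14a the log2 difference was -0.61 (SE 0.10) with hairpin 1 and -0.44 (SE 0.09) with hairpin 2. Rasef (NCBI Gene 242505, chr4:73714579-73790994, minus strand) stood at 37.5, 43.5, 54.4 and 59.0 CPM in controls 1 to 4, at 28.5, 34.2, 41.0 and 44.9 CPM with hairpin 1 and at 32.3, 40.3, 42.7 and 45.9 CPM with hairpin 2. Number 4 was the highest and number 1 the lowest in all 3 groups, and 5 of the 8 hairpin libraries were above the lowest control. Of the members, Rasef had the smallest difference from the control with hairpin 2, at -0.26 (SE 0.06), beside -0.39 (SE 0.06) with hairpin 1.

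Mef2c, the transcription factor of the set (NCBI Gene 17260, chr13:83504034-83667080, plus strand), stood at 36.0, 32.0, 23.2 and 43.3 CPM in controls 1 to 4, at 20.1, 22.6, 17.2 and 27.3 CPM with hairpin 1 and at 25.7, 28.3, 18.8 and 27.7 CPM with hairpin 2. Number 3 was the lowest in every group, and control 3 was below 4 hairpin libraries. The log2 difference was -0.61 (SE 0.09) with hairpin 1 and -0.41 (SE 0.09) with hairpin 2. Per kilobase of exon Mef2c was the lowest of the members, at 2.14 CPM per kb in the controls, though its long annotated exon length (15715 bases over all transcripts) lowers that value. Scin, Slc35d3, Txndc16 and Chst11 lay at 14.8, 14.5, 12.8 and 10.5 CPM per kb, and the control SDs of 1.56, 3.00, 1.74 and 5.04 show that neighbours in this order do not differ beyond their spread.

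**Figure D2:**
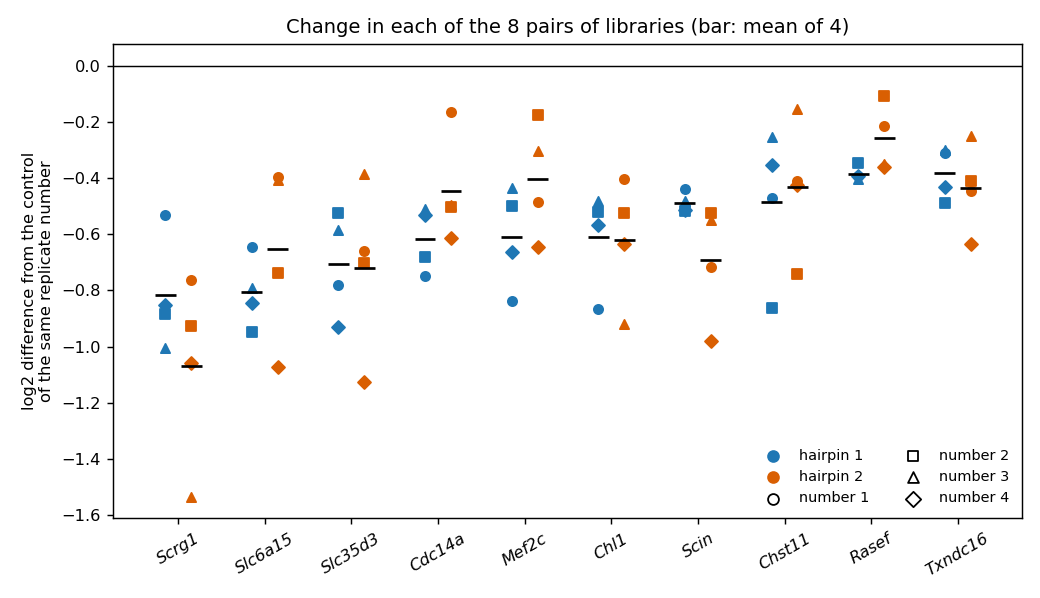
Log2 difference of each hairpin library from the control of the same replicate number (vertical axis), for the 10 genes; colours are hairpins, symbols are replicate numbers and bars are means of 4 pairs. All 80 points lie below 0, from -1.53 (Scrg1, hairpin 2, number 3) up to near 0 for Rasef with hairpin 2.

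How far a member's level differed between replicate numbers was often as large as the hairpin difference. The highest number was 2.60 times the lowest for Chst11 (number 4 over number 2), 2.39 times for Chl1 (3 over 2) and 2.05 times for Scrg1 (1 over 2), on means over the 3 groups. It was only 1.19 times for Scin and 1.23 times for Txndc16. Of the variance of log2 CPM over the 12 libraries, the replicate number took 84.6% for Chst11, 70.9% for Chl1 and 65.7% for Rasef, but 7.28% for Scin and 23.8% for Txndc16. The group took 85.1% for Scin, 68.3% for Txndc16 and 52.9% for Scrg1, and 12.5% for Chst11. On average over all genes the number took 69.3%, the group 13.3% and the remainder 17.3%. The members' remainder was 2.57% (Rasef) to 7.89% (Txndc16). The choice of members as genes that fell with each hairpin favours a large group share and a small remainder, so these shares are no test.

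**Figure D3:**
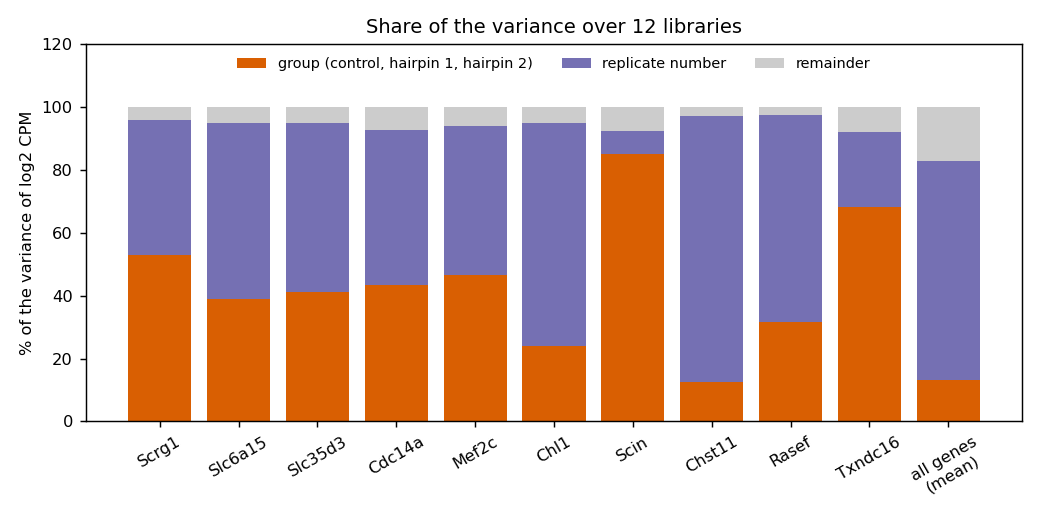
Share of the variance of log2 CPM over 12 libraries, in %, that goes with the group, with the replicate number and with neither, for the 10 genes and as the mean over all tested genes. Scin and Txndc16 are mostly group (85.1% and 68.3%), Chst11 and Chl1 mostly replicate number (84.6% and 70.9%).

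The members did not share 1 pattern over the replicate numbers. As means over the 3 groups, Chl1 stood at 46.6, 37.1, 88.7 and 37.9 CPM in numbers 1 to 4, so that number 3 alone was high. Chst11 stood at 45.0, 31.8, 32.2 and 82.7 CPM, with number 4 alone high. Slc35d3 stood at 33.99, 27.8, 34.1 and 18.4 CPM and was low in number 4. Scrg1, at 27.2, 13.3, 26.2 and 23.8 CPM, was low in number 2, whereas Rasef, at 32.8, 39.3, 46.0 and 49.9 CPM, was low in number 1.

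Whether the hairpins differed from each other was tested as a contrast of the hairpin groups in the fit over all 12 libraries, in which the controls enter the estimates of spread and of the replicate numbers. Picking genes for falling with both favours small differences in this contrast, so few calls among them are no independent sign of likeness. None of the 10 members passed the edgeR test of hairpin 2 against hairpin 1, where 3.44% of genes were called (1.87% lower and 1.57% higher with hairpin 2), and 3 had an unadjusted p under 0.05. DESeq2 with the replicate block also called none of them. The median size of the log2 difference was 0.14 for the members and 0.14 for all genes. The largest was that of Scrg1, at -0.25 (95% interval -0.50 to -0.003, edgeR adjusted p = 0.243). Mef2c was at 0.21 (0.01 to 0.40, edgeR adjusted p = 0.221) and Scin at -0.20 (-0.38 to -0.02, edgeR adjusted p = 0.202). The interval of Slc35d3 was -0.24 to 0.23 and that of Chl1 was -0.26 to 0.23, so that differences of that size remain possible in genes whose estimates were near 0.

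Numbers 3 and 4 differ from numbers 1 and 2 in depth, and not in depth alone. The lymphocyte markers summed to 2.69 to 6.59 CPM in numbers 1 and 2 and to 0.0461 to 0.704 CPM in numbers 3 and 4. The luminal epithelial sums overlapped, at 7930 to 9240 CPM and 8334 to 10985 CPM. The size of the members' fall was also compared between numbers 3 and 4 and numbers 1 and 2. None of the 10 passed in edgeR (1 had an unadjusted p under 0.05), and no gene at all was called (0% of 17025; 1033 at an unadjusted p under 0.05; 89 called by DESeq2, no member among them). Chst11 was at 0.32 on the log2 scale, the side of a smaller fall in numbers 3 and 4 (95% interval 0.01 to 0.64, edgeR adjusted p = 0.813). Scrg1 was at -0.34 (-0.72 to 0.04, edgeR adjusted p = 0.864). The median size was 0.087 for the members and 0.149 for all genes. Picking members by the fit with the replicate block favours a small remainder, and with it small values in this contrast. These medians are therefore no independent sign of a steady fall. In simulated data this comparison called 3% of the genes changed by 0.5 on the log2 scale and 54% of those changed by 1. The absence of calls therefore does not show that the falls were equal.

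**Figure D4:**
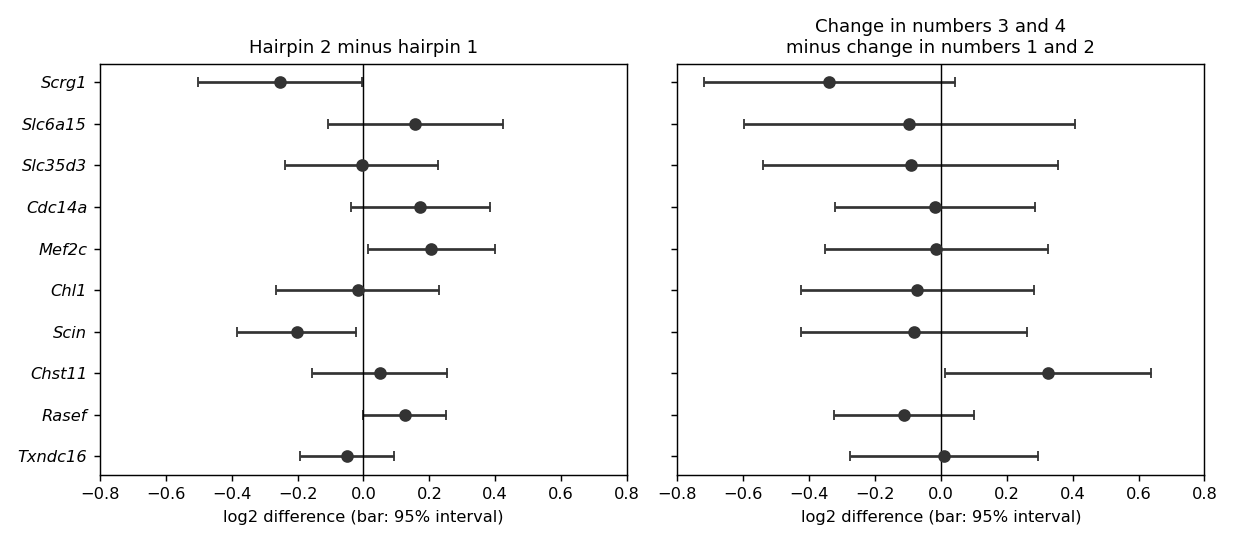
Log2 difference of hairpin 2 from hairpin 1 (left), and of the change in numbers 3 and 4 from the change in numbers 1 and 2 (right), for the 10 genes; points are edgeR estimates and bars 95% intervals. Members scatter to both sides of 0, Scrg1 lowest in each panel (-0.25 and -0.34).

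Other genes of the members' families and pathways were tested against the control, and 3 of them in 11 lists passed with hairpin 1. With hairpin 1, 0.728% of genes were called in either direction, and with hairpin 2 it was 5.76%. Of 20 other neutral amino acid transporters, none was called with hairpin 1, and with hairpin 2 Slc43a2, a carrier of large neutral amino acids, rose by 0.78 (SE 0.16; edgeR adjusted p = 0.0199). That call was lost without control 1, 3 or 4 or hairpin 2 library 1 (adjusted p up to 0.0727). Of 21 other SLC35 family genes, 1 fell with each hairpin: Slc35a3, a UDP-N-acetylglucosamine carrier, at -0.31 (SE 0.05) and -0.22 (SE 0.05). Its call was lost in 7 of the 12 fits that each left out 1 library for hairpin 1 and in 10 of 12 for hairpin 2 (adjusted p up to 0.125 and 0.108). None of 21 genes of lysosome-related organelle biogenesis, the process in which Slc35d3 acts in platelets, was called with either hairpin.

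In the chondroitin sulfate pathway, none of 20 synthesis genes other than Chst11 was called with hairpin 1, and 2 fell with hairpin 2. Chsy1, which polymerises the chondroitin chain, was at -0.45 (SE 0.09; edgeR adjusted p = 0.0167), lost without control 1, 3 or 4 or hairpin 2 library 4 (adjusted p up to 0.0594). Unlike Chst11, Chsy1 differed between the hairpins, with hairpin 2 lower by -0.58 (edgeR adjusted p = 0.00773, called in all 12 fits that left out 1 library). Dsel, an epimerase of dermatan sulfate, was at -0.26 (SE 0.06), a call lost in 10 of these 12 fits (adjusted p up to 0.141). Of 13 core proteins that carry such chains, none was called with hairpin 1 and 3 rose with hairpin 2: Dcn by 1.02, Bgn by 0.97 and Cspg4 by 0.74. The calls of Dcn and Bgn held in all 12 fits and that of Cspg4 was lost in 10 of them (adjusted p up to 0.129). The 9 fibroblast markers, Dcn among them, summed to 823 to 6166 CPM in the controls, 962 to 7735 with hairpin 1 and 2598 to 13638 with hairpin 2, higher than the control in all 8 pairs, and their part in these results was not tested.

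Some relatives of Scin rose with hairpin 1. Of 12 genes of the gelsolin family and actin severing, 2 rose with hairpin 1 and none was called with hairpin 2. Dstn (destrin, an actin-depolymerising protein) rose by 0.35 (SE 0.06) and Svil (supervillin) by 0.68 (SE 0.11), calls lost in 7 and 6 of the 12 fits that left out 1 library (edgeR adjusted p up to 0.137 and 0.122). Both were lower with hairpin 2 than with hairpin 1, by -0.39 and -0.49, of which the first held in all 12 fits and the second was lost in 7 (edgeR adjusted p up to 0.143).

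Of 17 MEF2 family members, regulators and targets, none was called with hairpin 1. With hairpin 2, 2 rose: Hdac7, a class IIa deacetylase that binds MEF2 proteins, by 0.58, held in all 12 fits that left out 1 library, and Mrtfa, a coactivator of serum response factor, by 0.37, lost in 10 (edgeR adjusted p up to 0.110). The paralogs Mef2a (0.00 and 0.02) and Mef2d (-0.02 and 0.02) were near 0 with both hairpins. Of 15 L1 family genes and partners, none was called with hairpin 1; with hairpin 2, Ptprs rose by 0.37 and Ezr, which links membrane proteins to actin, fell by 0.36. The Ptprs call was lost in 5 of the 12 fits (edgeR adjusted p up to 0.103) and that of Ezr in none. L1cam, the founding relative of Chl1, was at -0.41 with hairpin 1 and 0.04 with hairpin 2, neither past the threshold.

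None of 14 CDC14 and mitotic exit genes passed with either hairpin, with medians of 0.33 and 0.073, above 0 where Cdc14a was below; Cdc14b was at 0.20 and -0.04. None of 19 thioredoxin family genes of the endoplasmic reticulum passed either, with medians of -0.12 and -0.10 and 14 and 16 of them below 0, on the side of Txndc16. Of 21 chondrogenic genes, a list taken because Scrg1 and Chst11 are known from cartilage, none was called with hairpin 1, and with hairpin 2 there were 2 higher and 4 lower. The lower ones included the cartilage genes Cnmd at -1.88, Col9a2 at -1.20 and Col11a1 at -0.68, all called in each of the 12 fits that left out 1 library. Matn4 rose by 1.02, a call lost without control 1 or 3 or hairpin 2 library 1 or 4 (edgeR adjusted p up to 0.0607). Bst1, a receptor of Scrg1, was at -0.03 (SE 0.42) and 0.78 (SE 0.42), not past the threshold.

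**Figure D5:**
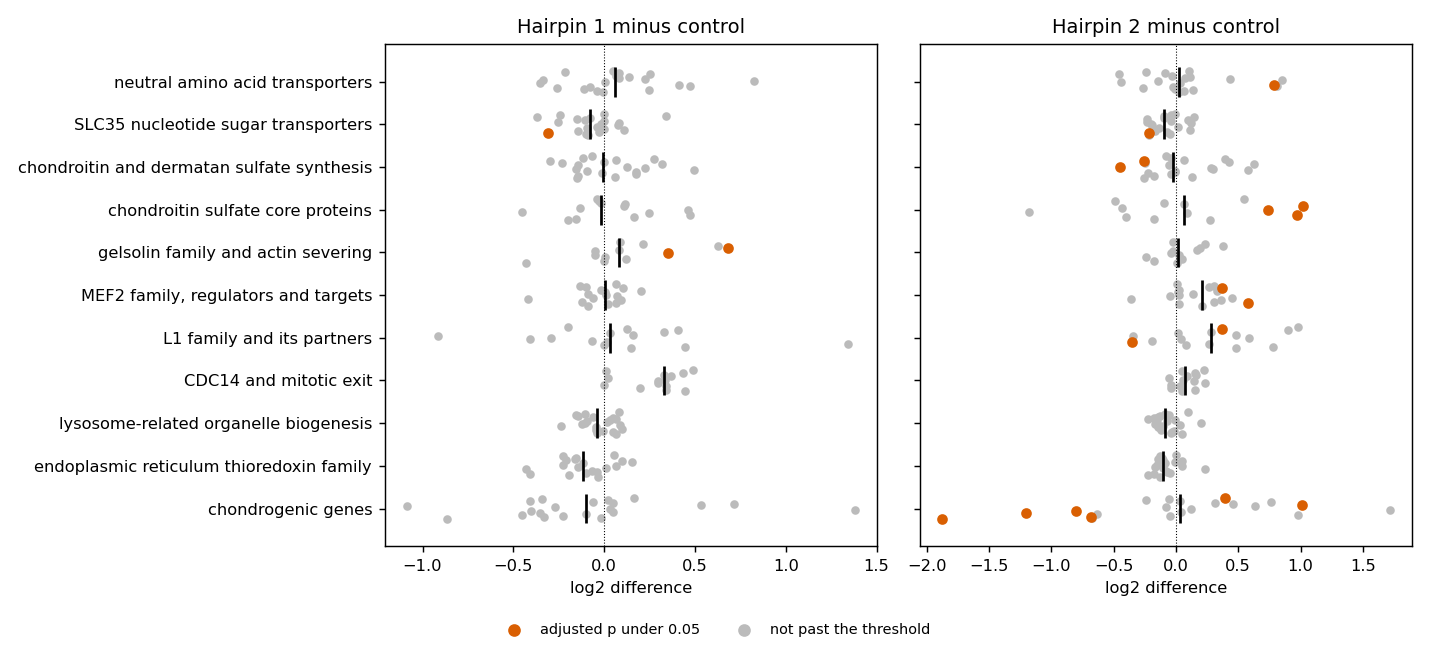
Log2 difference from the control (horizontal axis) for each tested gene of 11 lists related to the members, members left out, with hairpin 1 (left) and hairpin 2 (right); orange points passed edgeR's adjusted threshold and bars are list medians. Medians lie between -0.12 and 0.33 with hairpin 1, where 3 genes passed in all; with hairpin 2 the most passed among the chondrogenic genes (6 of 21) and the chondroitin core proteins (3 of 13).

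Beyond the members, 9 genes were lower and called with both hairpins. Besides Cldn7 they included Bglap3 (-0.96 and -0.83), an osteocalcin-related gene, Mogat1 (-1.09 and -0.51), a monoacylglycerol acyltransferase, Tspan2 (-0.38 and -0.39), a tetraspanin, and Sfxn5 (-0.36 and -0.34), a mitochondrial sideroflexin. The others included Slc15a2, Arpc5 and Slc35a3. In the 12 fits that left out 1 library, the hairpin 1 call was lost in 1 for Bglap3, 1 for Mogat1, 7 for Tspan2 and 8 for Sfxn5. The hairpin 2 call was lost in 8 of 12 for Mogat1 and in 0 for Bglap3, Tspan2 and Sfxn5. Slc15a2 lost its calls with hairpin 1 and hairpin 2 in 6 and 3 of these fits, and Arpc5 in 8 and 3. Just inside the threshold, the larger of the adjusted p-values over the hairpins in edgeR was 0.0494 for Chst11 and 0.0460 for Chl1. Just outside, Galnt15 had 0.0512 (log2 differences -1.03 and -1.23, mean 1.89 CPM) and Ints6l 0.0513. With each number's mean removed, the genes whose log2 CPM ran most like the members' mean over the 12 libraries were Tspan2 (Pearson r 0.975), Bglap3 (0.970), Sfxn5 (0.968), Eef2 (0.966) and Adprm (0.961). Members' own values ran from 0.906 (Chst11) to 0.967 (Slc6a15). Each member is part of the members' mean, which raises its r, so these are not comparable with those of the other genes. These 12 points share controls, numbers and library depth, and the r is a description. Eef2, translation elongation factor, was at -0.19 with each hairpin at a mean of 4564 CPM.

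Several members are also known from cells other than epithelium, so markers of these were read beside them. For Mef2c, which endothelial, lymphoid and myeloid cells express, the 8 endothelial markers summed to 1.40 to 9.07 CPM over all libraries. The 8 lymphocyte markers summed to 0.0461 to 6.59 CPM. Levels of different genes in CPM do not give shares of cells, so which cells the Mef2c reads came from was not tested. The endothelial sum was lower than the control in 4 of 4 pairs with hairpin 1 and in 1 of 4 with hairpin 2. The 10 macrophage markers summed to 132 to 294 CPM, of which Cd14 gave 126 to 292, and no other macrophage marker passed 9.21 CPM; this sum was lower in 4 of 4 pairs with hairpin 1 and in 2 of 4 with hairpin 2. Cdh5, Emcn, Cldn5, Ptprc, Adgre1 and C1qa were at 0 in at least 1 library. For Slc35d3, the 5 megakaryocyte and platelet markers summed to 3.44 to 11.1 CPM, with Pf4, Ppbp and Gp9 at 0 in at least 1 library. For Chl1, the glial marker Sox10 was at 366 to 706 CPM, and the neuronal marker Snap25 at 0 to 0.773 CPM. The luminal epithelial sum was 7930 to 10985 CPM in the controls, 7940 to 10380 CPM with hairpin 1 and 8256 to 9240 CPM with hairpin 2, lower than the control in 2 of 4 pairs with each. The basal sum was 868 to 3661, 1179 to 3384 and 1922 to 3406 CPM, lower than the control in 1 of 4 pairs with each hairpin. Of the 8 basal markers, none was called with hairpin 1 and 4 rose with hairpin 2. Cnn1 rose by 2.49 and Myh11 by 2.03, called in all 12 fits that left out 1 library, and Acta2 by 1.14 and Trp63 by 0.56, lost in 4 and 6 of them (edgeR adjusted p up to 0.0704 and 0.0944). The part of these markers in the members' falls was not tested.

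Reads of neighbouring genes touch the members little. Exons of Cdc14a overlapped Gm29151 over 0.549% of their length and those of Txndc16 overlapped Gpr137c over 1.37%, both on the opposite strand. Of the members' 50-base stretches of transcript, at most 3.50% (Txndc16) occurred in another gene.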

How the data were processed

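RNA sequencing was done on 12 libraries of oligo-dT selected RNA made with a NEBNext Ultra kit, per the labels' protocols. The authors deposited raw read counts per gene, not normalized, 1 column per library. Build mm10 and the tools FastQC 0.74, Trimmomatic 0.39 and DESeq2 1.34.0 are listed, per the submitters' processing notes; the sources used here do not give the aligner, annotation or strand setting, so reads of antisense neighbours cannot be told apart.

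From the counts, low-count genes were removed by group with filterByExpr of edgeR (17025 kept, 8836 left out, at least 99.9658% of each library's counts kept) and totals were scaled by TMM, the trimmed mean of M-values. Group differences were fitted with glmQLFit and glmQLFTest of edgeR 4.0.16 (R 4.3.3) over all 12 libraries with the replicate number as a block, p-values adjusted after Benjamini and Hochberg across the 17025 genes and called under 0.05. The numbers in the titles were taken to pair the libraries: deviations from group means correlated at 0.855 to 0.916 between libraries of 1 number in different groups and at -0.807 to 0.727 otherwise, and each of 12 libraries out of 12 correlated best with its own number. Log2 CPM used a prior count of 2. Within groups, the chi-square of counts per degree of freedom was 51.9 to 594, so no library was a duplicate. The fits were tested on simulated data.

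The members, the related lists and the markers were chosen with earlier results of these data known. Named genes were all members, Cldn7, up to 4 genes past the threshold in each related list by smallest p, the 5 genes of at least 2 CPM most like the members' mean, and the 5 genes lowest with both hairpins; paralogs named beside them, Eef2's values, Bst1 and the genes near the threshold are given as values. Alternatives were the fit without the block, DESeq2's size factors, no filter, DESeq2 1.42.0 with the block, leaving out each library, fitting only the groups compared, and numbers 1 and 2 or 3 and 4 alone. Coordinates and exon lengths are from GENCODE M21 on GRCm38 (mm10), promoters from RefSeq on GRCm38.p6. Some of the genes that the naming rule or the marker lists would take are not reported here.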

Additional observations from a re-analysis of the deposited data

Results flagged for a closer look

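Among the 30 sets of 4 libraries tested (10 members in 3 groups), 2 held a library far from the other 3, where chance gives about 1 in 20. Chl1 with hairpin 1 stood at 84.9 CPM in number 3 and at 32.4 to 33.3 CPM in the others. Number 3 was also the highest for Chl1 in the control and hairpin 2 groups, and without that library the log2 difference with hairpin 1 was -0.70 beside -0.60 with it. Txndc16 stood at 178 CPM in control 4 and at 137 to 142 CPM in the other controls. Without control 4 its log2 differences were -0.34 and -0.39, beside -0.38 and -0.43.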

How the results depend on the processing

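The members' log2 differences from the control kept their sign in 380 of 380 recomputed values. All 10 were lower in every pair with CPM by total count or by DESeq2's size factors, the settings in which pairs were recomputed. Leaving out a replicate number only drops pairs, and every pair was already lower, so that setting could not change the count. The members were chosen for falling in these same libraries, so an unchanged sign is no independent support. How many members passed the threshold depended on the setting. Without the replicate block 0 passed for either hairpin, and leaving out 1 library gave 0 to 10 for hairpin 1 and 5 to 10 for hairpin 2; 0 passed for hairpin 1 without control 4 or without any 1 of the hairpin 1 libraries. Fits of only the 2 groups compared called 10 and 3 members for hairpin 1 and hairpin 2, numbers 1 and 2 alone 0 and 3, and numbers 3 and 4 alone 0 and 2. Genes called lower with both numbered 2 in numbers 1 and 2 alone and 1 in numbers 3 and 4 alone. No member was called for hairpin 2 against hairpin 1, or for the difference in change between numbers 3 and 4 and numbers 1 and 2, in any setting. Over all genes, calls for hairpin 1, hairpin 2 and hairpin 2 against hairpin 1 were 124, 981 and 585 with the block and 1, 1 and 1 without it. DESeq2 with the block gave 607, 1856 and 1436, and 89 for the difference in change between the pairs of numbers, which was 0 in edgeR and 3 without the filter. Fits of only the groups compared gave 390 for hairpin 1 and 97 for hairpin 2. Numbers 1 and 2 alone gave 9, 82 and 84, and numbers 3 and 4 alone 1, 327 and 42. Leaving out 1 library each gave 2 to 344, 342 to 1076, 165 to 672 and 0 to 55. The cause of these shifts was not tested.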
